A study of Rattus norvegicus with 6 samples.

Results

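The mitochondrial ribosomal proteins were examined as a module of 70 genes, 41 named Mrpl and 29 named Mrps in the array files. They were taken by name from the non-control probes and were read by 90 probes. These genes stand among 17582 genes with a symbol, of 45598 non-control probes on the array. Each gene was represented by its probe with the highest mean over all arrays, a choice that did not use the groups. The current RefSeq symbol of 1 of them, *Mrps36*, is *Kgd4*, and its product is now placed in the 2-oxoglutarate dehydrogenase complex. It was kept because the rule goes by the name in the files.

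Mitochondria carry their own ribosome, which translates the few messenger RNAs encoded by mitochondrial DNA into core subunits of the respiratory chain and ATP synthase. All of its proteins are encoded in the nucleus, made in the cytosol and imported. Some have counterparts in bacterial ribosomes and others are found in mitochondria alone. In β-cells, oxidative phosphorylation supplies the ATP that couples glucose metabolism to insulin secretion.

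The study asked how replicating β-cells differ in gene expression from quiescent ones. Islets of young adult male Wistar rats were cultured overnight with EdU, a thymidine analogue that enters newly made DNA. Dispersed islet cells were labelled with Newport Green, a dye that binds the zinc of β-cells, then fixed, permeabilized, stained for EdU and sorted. EdU-positive cells were the replicating group and EdU-negative cells the quiescent group, and both groups had the same culture, label and fixation. There were 3 islet preparations, each a pool of 4 rats, and each gave 1 replicating and 1 quiescent sample, hence 6 one-colour arrays of amplified RNA. Cells were taken by the sorting gates, the study's methods also counted sorted cells stained for insulin and C-peptide, and each preparation pools its rats. A ratio is the log2 value of the replicating array minus that of the quiescent array of the same preparation, so a ratio of 1 is a doubling.

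The arrays differed in quality. Between 80.71% and 98.42% of probes were well above background. The quiescent array of preparation 2 stood apart, with correlations of 0.647 to 0.822 with the other arrays over all probes and 1583 outlier spots against 252 to 299. It gave the lowest of the 6 values for 43 of the 70 mitochondrial ribosomal protein genes (61.4%) and for 38.7% of all genes, and the highest value for 16 of them (22.9%) and for 32.7% of all genes. The quiescent array of preparation 3 gave the highest value for 32 of them (45.7%), against 21.3% of all genes. Where preparation 2 carried the ratio of a gene described below by its array values, the ratio without it is given too. All 6 proliferation genes checked, *Mki67*, *Top2a*, *Ccnb1*, *Cdk1*, *Plk1* and *Pttg1*, were above 0 in all 3 preparations, with a median ratio of 4.07.

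The sequences shown first are the probes that carry the results below. They are the 60-base probes of the 3 genes called higher, and both probes of *Mrps27*, which gave ratios of opposite sign. Positions are on the rat build rn4, as in the array files, and the spans of the *Mrps5* probe and the second *Mrps27* probe are wider than the probe itself.
Mrpl43, chr1:250072915-250072974, minus strand: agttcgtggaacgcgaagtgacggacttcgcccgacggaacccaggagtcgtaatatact
Mrps12, chr1:83845243-83845302, minus strand: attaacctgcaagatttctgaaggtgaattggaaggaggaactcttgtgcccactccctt
Mrps5, chr3:115137158-115137609, plus strand: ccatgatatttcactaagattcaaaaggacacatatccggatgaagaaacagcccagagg
Mrps27, brighter probe, chr2:30386318-30386377, plus strand: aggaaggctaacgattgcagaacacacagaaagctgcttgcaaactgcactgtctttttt
Mrps27, second probe, chr2:30403939-30405986, plus strand: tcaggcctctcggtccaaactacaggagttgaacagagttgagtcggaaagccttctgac

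A RefSeq promoter of 250 bases before to 50 after the start (build GRCr8) was matched for 54 of the 70 genes. Each was searched on both strands for motifs of factors known to bind promoters of mitochondrial genes. NRF1 is a regulator of nuclear genes for mitochondrial proteins, GABP binds ETS motifs at many of the same promoters, and YY1 is a zinc-finger factor. The NRF1 letters CGCATGCG were in 6 promoters (11.1%, against 1.81% of all 27457 promoters). The ETS letters CCGGAAG were in 17 (31.5% against 9.21%), and the YY1 letters AAGATGGCG in 9 (16.7% against 1.92%). At least 1 of these motifs was in 27 promoters (50% against 12%). Among the 12779 promoters of genes on the array the shares were 2.82% for NRF1, 13.4% for ETS, 2.84% for YY1 and 17.5% for at least 1 of them. The E-box CACGTG was in 6 (11.1%, against 6.63% of all promoters and 8.26% of those of genes on the array). CCAAT was in 25 (46.3%, against 37.7% and 37.2% in the same order). The end of the ETS letters can run into the start of the YY1 letters, but no such overlap occurred in these promoters.

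Both ETS and YY1 letters were in 4 promoters (7.41% against 0.379% of all promoters), of which *Mrps10*, *Mrps18a* and *Mrps27* are shown with the motifs in capitals. They are joined by *Mrpl27*, whose start lies beside that of *Eme1*, and by *Mrps5*, the gene with the highest ratio, which held none of the first 3 motifs.
Mrps10, chr9:21122404-21122703, minus strand: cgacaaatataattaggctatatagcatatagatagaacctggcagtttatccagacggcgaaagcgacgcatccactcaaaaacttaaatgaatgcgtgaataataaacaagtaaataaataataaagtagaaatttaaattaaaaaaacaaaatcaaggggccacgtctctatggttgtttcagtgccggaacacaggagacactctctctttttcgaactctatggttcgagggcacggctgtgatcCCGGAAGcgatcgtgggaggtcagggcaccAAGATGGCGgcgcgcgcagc
Mrps18a, chr9:22367331-22367630, minus strand: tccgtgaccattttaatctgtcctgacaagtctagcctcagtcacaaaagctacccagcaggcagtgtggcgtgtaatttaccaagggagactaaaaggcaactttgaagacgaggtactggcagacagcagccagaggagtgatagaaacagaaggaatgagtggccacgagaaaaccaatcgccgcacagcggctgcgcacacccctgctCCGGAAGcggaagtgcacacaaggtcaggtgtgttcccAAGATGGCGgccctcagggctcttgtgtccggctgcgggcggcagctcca
Mrps27, chr2:32473954-32474253, plus strand: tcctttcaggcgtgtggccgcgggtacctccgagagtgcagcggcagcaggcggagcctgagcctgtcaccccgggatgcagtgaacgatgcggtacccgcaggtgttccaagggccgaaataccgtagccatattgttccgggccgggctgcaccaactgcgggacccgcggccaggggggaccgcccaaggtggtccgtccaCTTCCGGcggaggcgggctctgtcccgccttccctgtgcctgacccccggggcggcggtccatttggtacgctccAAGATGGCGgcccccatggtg
Mrpl27, chr10:80092095-80092394, plus strand: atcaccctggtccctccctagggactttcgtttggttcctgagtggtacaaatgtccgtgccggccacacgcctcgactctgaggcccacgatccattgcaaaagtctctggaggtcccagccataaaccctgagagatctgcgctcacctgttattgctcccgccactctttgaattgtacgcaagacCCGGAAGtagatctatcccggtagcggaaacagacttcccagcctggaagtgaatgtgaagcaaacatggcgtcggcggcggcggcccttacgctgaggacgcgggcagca
Mrps5, chr3:135274083-135274382, plus strand: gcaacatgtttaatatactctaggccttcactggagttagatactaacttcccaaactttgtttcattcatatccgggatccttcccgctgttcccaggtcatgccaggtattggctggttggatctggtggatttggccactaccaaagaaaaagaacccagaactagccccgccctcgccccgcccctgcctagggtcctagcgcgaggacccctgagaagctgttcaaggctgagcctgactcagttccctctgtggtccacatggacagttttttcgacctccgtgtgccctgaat

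As a group, the mitochondrial ribosomal protein genes had a median log2 ratio of 0.41, against 0.01 over all genes with a symbol. The ratio was above 0 for 49 genes and below 0 for 21. The median was 0.34 in preparation 1, 0.87 in preparation 2 and -0.17 in preparation 3, so the preparations did not share a direction. In turn, 56, 45 and 22 of the 70 genes were above 0. Without preparation 2 the median was 0.08, against -0.02 over all genes, and without preparation 3 it was 0.60, against 0.07. The module was brighter than the genes it is set against, with a median mean log2 value of 10.21 against 8.56 over all genes. With only probes well above background in at least 1 group, the median ratio was 0.41, against 0.08.

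In the paired fit across all probes, no gene of the module and no gene on the array had an adjusted p under 0.05 by limma with Benjamini-Hochberg (0% of genes). The smallest adjusted p in the module was 0.483. With 3 pairs, these p-values reflect the spread between 3 islet preparations. At an unadjusted p of 0.05 or less, 3 of the 70 genes were called higher (4.29%, against 6.55% of all genes) and 0 lower (against 2.79%). Without preparation 1 the count called higher was 0 (1.67% of all genes), without preparation 2 it was 2 (5.03%), and without preparation 3 it was 12 (17.1% of the module against 13.9%). All 3 called over all arrays also had a ratio of at least 1, a criterion met by 5.91% of all genes. These 3 genes are a share close to the background. Replicating β-cells read higher in all 3 preparations for 15 genes (21.4%, against 18.3% of all genes) and lower in all 3 for 7 (against 17.5%).

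**Figure D1:**
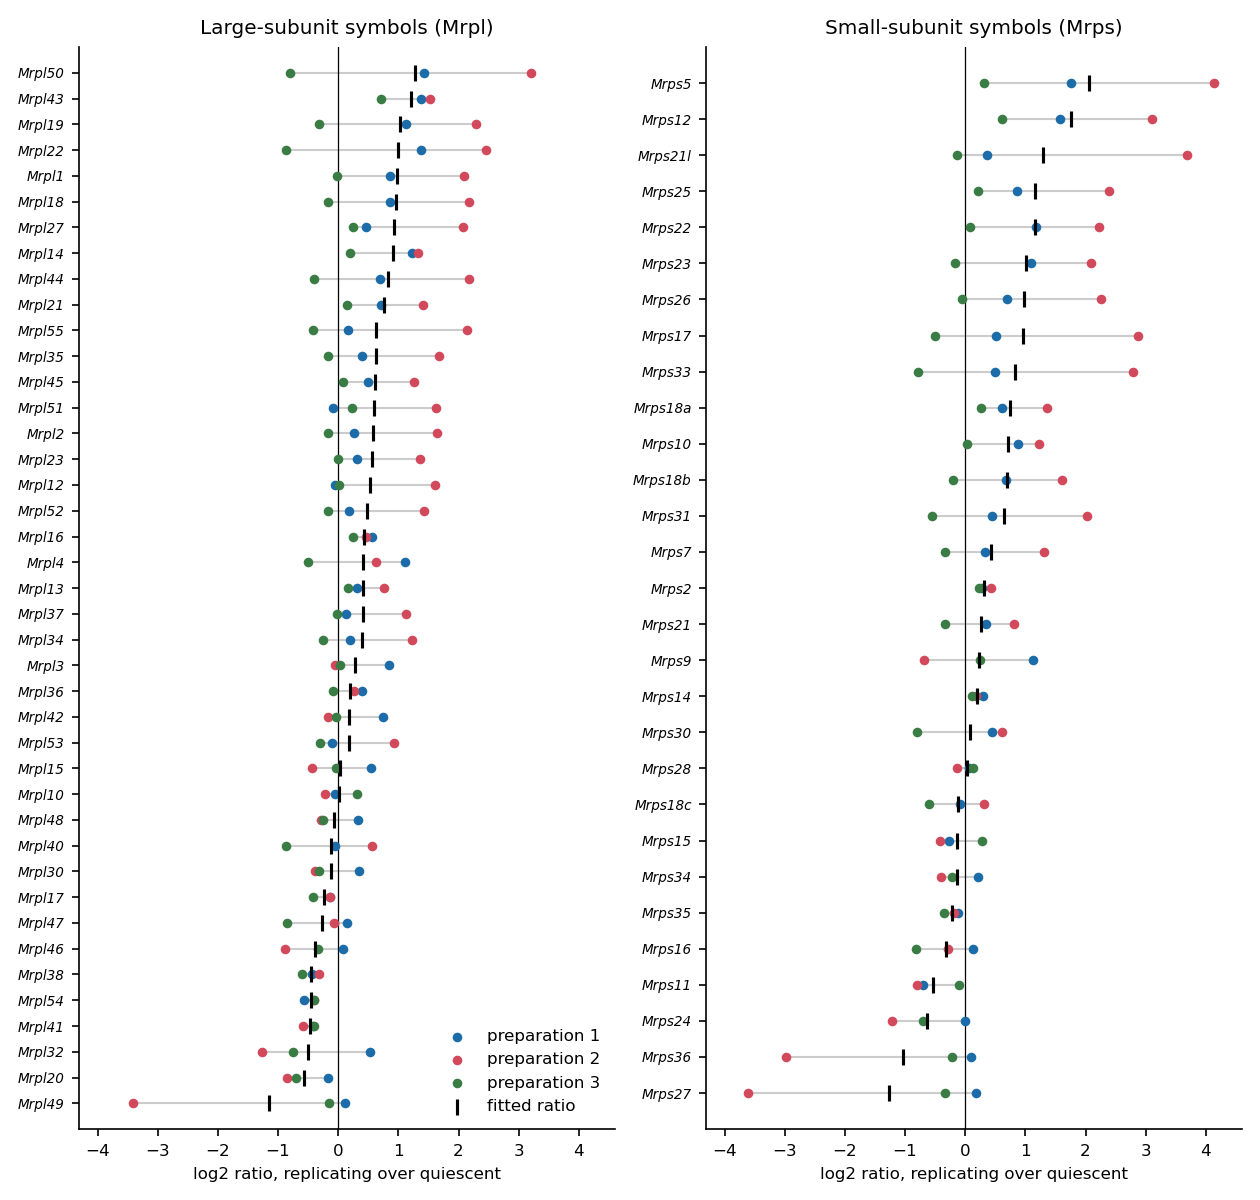
Log2 ratio of replicating over quiescent β-cells for each of the 70 genes, by symbol, in the 3 islet preparations (coloured points, joined by a grey line from lowest to highest) and in the paired fit (black mark). Preparation 2 lies farthest from 0 for 51 of the 70 genes, and 22 of 70 genes are above 0 in preparation 3.

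The gene with the highest ratio was *Mrps5*, a small-subunit protein with a bacterial counterpart in the part of the ribosome that guards decoding accuracy. Its log2 values in preparations 1, 2 and 3 were 10.84, 11.02 and 9.97 in replicating and 9.09, 6.90 and 9.65 in quiescent β-cells. All replicating values lay above all quiescent ones, and the quiescent value of preparation 2 was the lowest by over 2 log2 units. With an SE of 0.756, its fitted ratio of 2.06 had an unadjusted p of 0.0399 in limma. Without preparation 2 the ratio was 1.03 and was no longer called, with an unadjusted p of 0.0649.

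*Mrps12* encodes the counterpart of bacterial S12, a protein of the decoding centre. It had log2 values of 11.49, 10.99 and 11.55 in replicating and 9.92, 7.88 and 10.94 in quiescent β-cells. The groups again did not overlap, and again the quiescent array of preparation 2 was lowest. limma fitted a ratio of 1.76 with an SE of 0.547 and an unadjusted p of 0.0224, and without preparation 2 the ratio was 1.09 (unadjusted p 0.0392). *Mrpl43*, a large-subunit protein found in mitochondria alone, had values of 9.48, 8.28 and 9.87 in replicating and 8.10, 6.75 and 9.16 in quiescent β-cells. The replicating value was higher within each preparation, by 1.38, 1.53 and 0.71, although the groups overlapped. This came to a ratio of 1.21 (SE 0.346), with an unadjusted p of 0.0165 by limma, and its ratio without preparation 2 was 1.05 (unadjusted p 0.0388). Of 15 alternatives, *Mrpl43* lost its call in 5, with an unadjusted p of up to 0.231, and *Mrps5* and *Mrps12* lost theirs in 3 each. Without preparation 1 the unadjusted p was 0.123 for *Mrpl43*, 0.0821 for *Mrps12* and 0.104 for *Mrps5*.

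Groups that did not overlap were found in 3 genes with replicating β-cells higher (*Mrps5*, *Mrps12* and *Mrps22*) and in 3 with replicating β-cells lower (*Mrpl20*, *Mrpl41* and *Mrps11*). Over all genes these shares were 11.1% and 5.85%. *Mrps22*, a small-subunit protein specific to mitochondria, had values of 9.32, 9.47 and 9.24 in replicating and 8.15, 7.26 and 9.15 in quiescent β-cells. Preparation 3 separated its groups by only 0.08. The ratio was 1.16 (SE 0.492, limma unadjusted p 0.0639), and without preparation 2 the ratio was 0.62. The ratios of the 3 genes on the other side were -0.58 for *Mrpl20*, -0.46 for *Mrpl41* and -0.53 for *Mrps11*, each from the probe chosen. The second probe of *Mrpl41* read 0.11 and that of *Mrps11* read -0.41.

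The large subunit was represented by 25 proteins with a bacterial counterpart and 18 specific to mitochondria. The second class includes the products of *Mrps18a* and *Mrps30*, which sit in the large subunit despite their names. The class with bacterial counterparts had a median ratio of 0.42, with 20 genes above 0 and 0 called in either direction, and its medians by preparation were 0.40, 1.23 and -0.17. *Mrpl14*, the counterpart of bacterial L14 at the face that meets the small subunit, had values of 11.04, 11.27 and 11.32 in replicating and 9.81, 9.94 and 11.12 in quiescent β-cells. Its replicating arrays lay within 0.28 of each other, and the quiescent value of preparation 3 fell inside their range. With an SE of 0.382, its fitted ratio of 0.92 had an unadjusted p of 0.0599 in limma.

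*Mrpl1*, *Mrpl21* and *Mrpl27* also encode counterparts of bacterial proteins, L1 of the stalk by which spent transfer RNA leaves, L21, and L27 near the peptidyl transferase centre. *Mrpl1* had values of 9.86, 9.43 and 9.93 in replicating and 9.004, 7.35 and 9.95 in quiescent β-cells, a gap that closed in preparation 3. limma fitted a ratio of 0.97 with an SE of 0.488 and an unadjusted p of 0.100, and the ratio was 0.42 without preparation 2. For *Mrpl21* the values were 11.06, 10.73 and 11.15 against 10.36, 9.31 and 11.01. Its ratio was above 0 in each preparation and smallest in preparation 3. This came to a ratio of 0.75 (SE 0.384), with an unadjusted p of 0.105 by limma. Preparations 1 and 3 alone gave 0.42. *Mrpl27* read 8.92, 8.50 and 9.84 in replicating and 8.46, 6.43 and 9.59 in quiescent β-cells, with the lowest of the 6 on the quiescent array of preparation 2. The ratio was 0.93 (SE 0.473, limma unadjusted p 0.105). Preparations 1 and 3 alone gave 0.35.

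The mitochondria-specific class of the large subunit had a median ratio of 0.18, with medians of 0.15, 0.77 and -0.28 by preparation. *Mrpl43* was its 1 called gene (5.56%, against 6.55% of all genes). *Mrps18a* was above 0 in all 3 preparations, with values of 10.36, 10.29 and 11.12 in replicating and 9.75, 8.93 and 10.86 in quiescent β-cells. As for *Mrpl1*, the replicating arrays spread less than the quiescent ones. With an SE of 0.369, its fitted ratio of 0.74 had an unadjusted p of 0.0986 in limma, and without preparation 2 the ratio was 0.43. The highest ratio of the large subunit was that of *Mrpl50*, 1.27, where preparations 1 and 2 read 1.42 and 3.20 and preparation 3 read -0.80, and it was 0.31 without preparation 2. *Mrpl38*, *Mrpl41* and *Mrpl54* had ratios between -0.61 and -0.32 in every preparation.

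The small subunit was represented by 15 proteins with a bacterial counterpart and 10 specific to mitochondria. The first class held 2 of the 3 called genes, *Mrps5* and *Mrps12* (13.3% of the class, against 6.55% of all genes). In it, 5 genes were above 0 in all 3 preparations (33.3%, against 18.3% of all genes). In a class of 15 genes, such counts are too few to read as a result about the class. Its median was 0.22, with 0.30, 0.31 and 0.03 by preparation. *Mrps10* encodes the counterpart of bacterial S10, a protein of the head of the subunit. It had values of 9.04, 7.80 and 9.52 in replicating and 8.16, 6.58 and 9.49 in quiescent β-cells, and the gap in preparation 3 was 0.03. limma fitted a ratio of 0.71 with an SE of 0.379 and an unadjusted p of 0.118, and without preparation 2 the ratio was 0.45. *Mrps2* was above 0 in each preparation, at 0.28, 0.43 and 0.22.

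The mitochondria-specific class of the small subunit had the highest median of the 4 classes, 0.76, and 0 of its 10 genes were called. By preparation it read 0.58, 2.06 and -0.21, so the height of that median came with preparation 2. *Mrps25* had values of 11.07, 10.702 and 11.46 in replicating and 10.20, 8.31 and 11.25 in quiescent β-cells. The quiescent value of preparation 3 lay inside the replicating range. This came to a ratio of 1.16 (SE 0.506), with an unadjusted p of 0.0692 by limma. Its ratio without preparation 2 was 0.54 (unadjusted p 0.235). *Mrps23* had values of 8.19, 8.19 and 8.36 in replicating and 7.10, 6.10 and 8.53 in quiescent β-cells. Its replicating arrays agreed within 0.17, while its quiescent arrays spanned over 2 log2 units. The ratio was 1.00 (SE 0.511, limma unadjusted p 0.105), and the ratio was 0.46 without preparation 2. The remaining 2 genes, *Mrps36* and *Mrps21l*, were put in no class, the second because it carries the name of an *Mrps21*-like sequence. *Mrps21l* had a ratio of 1.30, made of 0.36, 3.68 and -0.14, and a ratio of 0.11 without preparation 2.

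**Figure D2:**
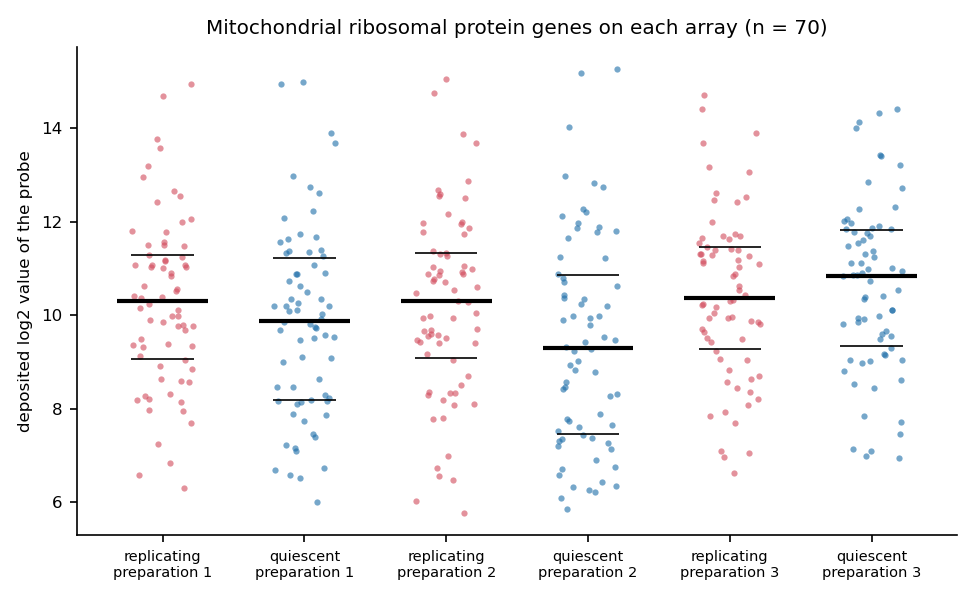
Deposited log2 value of each of the 70 genes on each array, paired by islet preparation (red, replicating; blue, quiescent), with the median as a thick line and the quartiles as thin lines; sideways scatter has no meaning. The replicating medians sit between 10.29 and 10.38, and the quiescent ones at 9.88, 9.29 and 10.84.

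The replicating arrays agreed more closely than the quiescent ones. The median SD over the 3 arrays was 0.238 log2 units in replicating and 0.83 in quiescent β-cells, and it was larger in quiescent cells for 65 of 70 genes (92.9%, against 86.9% of all genes). Within its own array, the median gene of the module was ranked among all genes with a symbol. It stood at the percentile 74.29, 73.49 and 75.38 in replicating β-cells, and at 70.93, 62.39 and 79.92 in quiescent β-cells. The spread between preparations thus lay mainly in the quiescent arrays, whose order was preparation 2, 1 and 3 from low to high. Across the 70 genes, the ratios of preparations 1 and 2 had an r of 0.555, those of 1 and 3 an r of 0.28, and those of 2 and 3 an r of 0.162. Over all genes the r was 0.603, 0.274 and 0.0384 in the same order. Genes are not independent replicates, and all ratios share the normalization over the 6 arrays.

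The 4 lowest ratios belonged to *Mrps27*, *Mrpl49*, *Mrps36* and *Mrps24*, and none was called. *Mrps27*, a small-subunit protein specific to mitochondria, had values of 8.63, 8.36 and 8.63 in replicating and 8.45, 11.98 and 8.97 in quiescent β-cells. A single value, the quiescent array of preparation 2, stood over 3 log2 units above every other value. With an SE of 0.8, its fitted ratio of -1.26 had an unadjusted p of 0.175 in limma, and without preparation 2 the ratio was -0.08. The second probe of the gene, printed above, had a ratio of 0.48.

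*Mrpl49* showed the same arrangement, with 6.83, 6.57 and 6.97 in replicating and 6.72, 9.98 and 7.13 in quiescent β-cells, and its ratio moved from -1.15 to -0.02 without preparation 2. Its probe was well above background on 2 of the 3 replicating arrays. *Mrps36* had values of 8.28, 6.48 and 8.83 in replicating and 8.18, 9.46 and 9.05 in quiescent β-cells, and here the replicating array of preparation 2 was the lowest. The *Mrps36* probe, too, was well above background on only 2 of the 3 replicating arrays. For *Mrps36*, limma fitted a ratio of -1.03 with an SE of 0.681 and an unadjusted p of 0.188. The ratio of the gene was -0.06 without preparation 2, and its second probe read 0.29. For *Mrps24*, which encodes the mitochondrial counterpart of bacterial S3, the values were 9.69, 9.57 and 10.42 in replicating and 9.69, 10.78 and 11.12 in quiescent β-cells. Preparation 1 showed no difference and preparations 2 and 3 read lower in replicating β-cells. This came to a ratio of -0.63 (SE 0.378), with an unadjusted p of 0.152 by limma. Preparations 1 and 3 alone gave -0.35.

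The 3 brightest probes of the module had small ratios. *Mrpl10*, the counterpart of the bacterial stalk protein L10, read 14.95, 15.04 and 14.72 in replicating and 14.99, 15.26 and 14.40 in quiescent β-cells, a ratio of 0.02 (SE 0.323). *Mrps15* read 14.69, 14.76 and 14.41 in replicating and 14.96, 15.18 and 14.14 in quiescent β-cells, a ratio of -0.14 (SE 0.335). *Mrpl17* read 13.77, 13.88 and 13.91 in replicating and 13.91, 14.02 and 14.33 in quiescent β-cells, a ratio of -0.23 (SE 0.314), while its second probe read 1.00. For all 3 genes the groups overlapped, and neither the ratio of *Mrpl10* nor that of *Mrps15* had one sign over the preparations. The sign for *Mrpl10* also turned with the scaling of the arrays.

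At the other end, *Mrps14*, *Mrpl15* and *Mrpl46* had the lowest means. *Mrps14* read 6.30, 6.03 and 7.09 in replicating and 5.99, 5.85 and 6.99 in quiescent β-cells and was well above background on 1 replicating array. *Mrpl15* read 7.24, 5.77 and 7.05 in replicating and 6.69, 6.21 and 7.09 in quiescent β-cells, a ratio of 0.02 whose sign depended on the background correction. *Mrpl46* read 6.59, 6.72 and 6.61 in replicating and 6.51, 7.61 and 6.94 in quiescent β-cells, a ratio of -0.38 (SE 0.354) that was -0.12 without preparation 2. Such values lie near the floor of the scale. In all, 66 of the 70 genes were well above background on all 6 arrays, and their median ratio was 0.42.

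**Figure D3:**
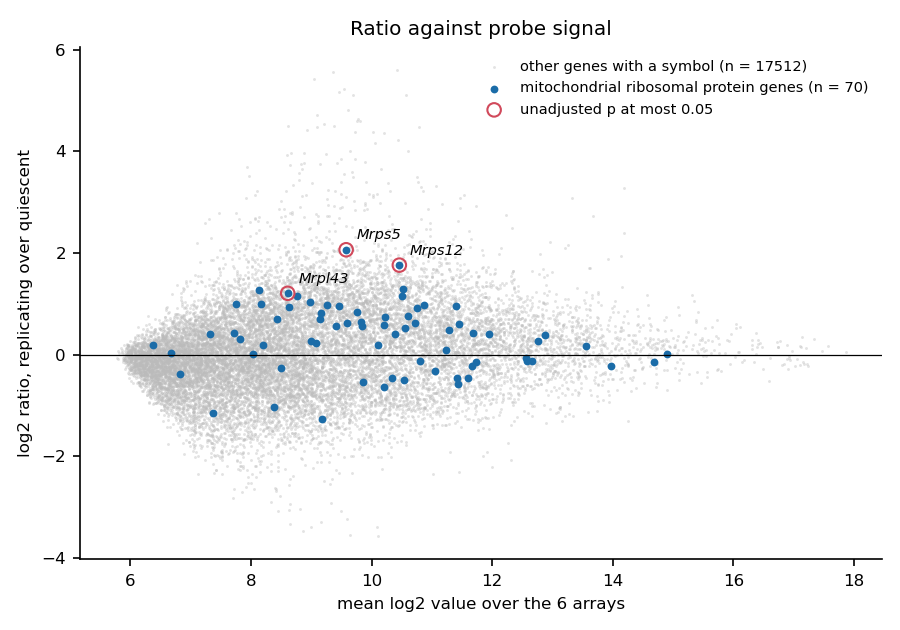
Fitted log2 ratio against the mean log2 value over the 6 arrays for the 70 genes (blue) and for the other 17512 genes with a symbol (grey), with red rings at an unadjusted p of 0.05 or less. Ringed are *Mrps5*, *Mrps12* and *Mrpl43*, and the blue points run from -1.26 to 2.06 within the cloud of other genes.

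Of the 70 genes, 15 had several probes. In 6 of these, *Mrpl17*, *Mrpl41*, *Mrpl47*, *Mrps27*, *Mrps35* and *Mrps36*, the probes of the gene gave ratios of both signs. The 15 genes with several probes had a median ratio of -0.12 and the 55 with a single probe a median of 0.48. The 3 called genes had a single probe each, so no second probe reads them. The GC content of the probes ran from 30% to 55%. Its correlation with the ratio across the 70 genes was -0.252, -0.173 and 0.204 in preparations 1, 2 and 3.

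Genes that share a start region offered a further description. A start on the opposite strand within 1000 bases was found for 18 of the 54 genes with a promoter (33.3%, against 10.3% of all promoters). All promoters here include those of genes not on the array, and a share for genes on the array alone was not computed. Both genes were measured in 15 such pairs, and 10 pairs had ratios of the same sign (66.7%, against 57.2% of the 444 such pairs over all genes). The pair of *Mrpl27* and *Eme1*, whose starts lie 44 bases apart, read 0.93 and 1.65. *Eme1* encodes a subunit of a structure-specific DNA endonuclease and was the 1 neighbour called, with an unadjusted p of 0.016. *Mrpl46* and *Mrps11*, 234 bases apart, are both of the module and read -0.38 and -0.53. The median ratio was 0.42 with and 0.39 without the ETS letters, 0.35 and 0.40 for NRF1, and 0.19 and 0.42 for YY1.

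The neighbouring steps of mitochondrial translation were read from lists of genes. Over all genes, 6.55% were called higher and 2.79% lower. In lists this short, 1 or 2 calls are too few to read as a result about the list. Mitoribosome proteins under other symbols (7 genes) had a median ratio of -0.22 and 0 called. The highest was *Gadd45gip1*, a large-subunit protein, at 1.34, made of 0.43, 3.23 and 0.37. Of 26 genes for assembly and ribosomal RNA modification, 0 were called higher and 2 lower, *Mrm1*, a methyltransferase of the large ribosomal RNA (-0.96), and *Ybey*, an endonuclease of ribosomal RNA maturation (-1.45). Their list median was 0.05. Of the 14 genes in the list of translation factors, 1 was called lower, *Slirp* (-1.70), with a list median of 0.01. *Slirp* is itself no translation factor but a partner of LRPPRC in stabilizing mitochondrial messenger RNA.

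Of 17 mitochondrial tRNA synthetases, 1 was called lower (against 2.79% of all genes), *Wars2* for tryptophan (-1.22), and the list median was 0.37. The 10 genes of mitochondrial DNA transcription and replication had a median of 0.59 with 0 called, and *Tfam*, which packages mitochondrial DNA and starts its transcription, read 0.36, 3.79 and -0.90. In each of these lists of translation factors, synthetases and mitochondrial DNA genes, the median was above 0 in preparations 1 and 2 and below 0 in preparation 3. The assembly list had the same signs (0.21, 0.35 and -0.25). So did all genes with a symbol, with smaller medians (0.12, 0.08 and -0.05).

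The respiratory chain and ATP synthase subunits (79 genes) had a median ratio of 0.24. Of these, 6 were called higher (7.59%, against 6.55% of all genes), *Atp5b*, *Atp5c1*, *Ndufa9*, *Ndufa12*, *Sdhd* and *Uqcrc2*, and 1 lower, *Ndufc1* (against 2.79% of all genes). By preparation the medians were 0.24, 0.77 and -0.16, in the same order as those of the mitochondrial ribosomal proteins. The proteins of the cytosolic ribosome (82 genes) had a median of 0.20, with 0.25, 0.27 and 0.04 by preparation, and 38 of them (46.3%, against 18.3% of all genes) were above 0 in all 3. Of the 82 genes, 2 were called higher (2.44%, against 6.55% of all genes), *Rpl6* and *Rps2*. The values of the cytosolic ribosomal proteins were also steadier, with a median SD of 0.158 in replicating and 0.331 in quiescent β-cells. The differences between these lists were not tested.

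**Figure D4:**
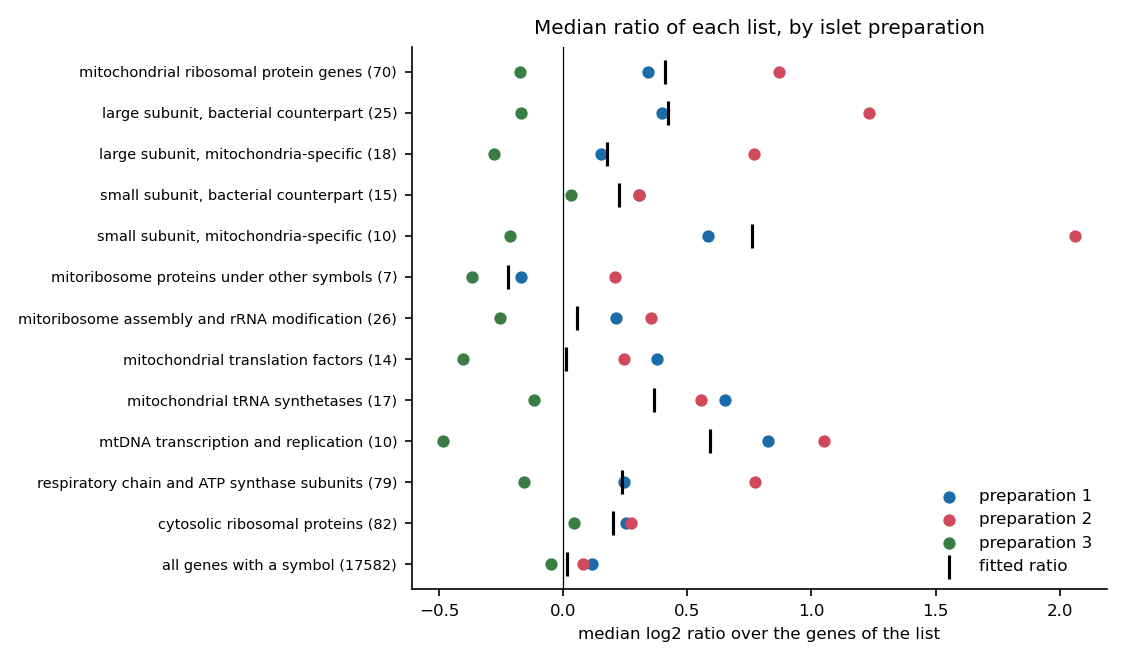
Median log2 ratio over the genes of each list (number of genes in brackets) in each islet preparation (coloured points) and in the paired fit (black mark). The medians of the mitochondrial ribosomal proteins are 0.34, 0.87 and -0.17, and those of all genes lie between -0.05 and 0.12.

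Markers of some other cell types read higher in replicating samples. Ratios were above 0 for all 8 fibroblast and stellate, all 4 delta and PP and all 4 immune markers. The 4 delta and PP and the 4 immune markers were above 0 in all 3 preparations, against 18.3% of all genes. Of the fibroblast and stellate markers, 3 were. The alpha cell and acinar lists were mixed. At an unadjusted p of 0.05 or less, 2 of 6 alpha cell markers, 3 of 4 delta and PP cell markers, 2 of 8 fibroblast and stellate markers, 2 of 4 immune markers and 2 of 5 acinar markers were higher in replicating samples, with *Gcg* at 2.39 and *Col3a1* at 3.07. None of 4 endothelial or 3 duct markers was called. Over all genes, 6.55% were called higher at this threshold. Ratios were below 0 for 2 of the alpha cell, 2 of the acinar, 2 of the endothelial and all 3 duct markers. The signals of each list were also summed and the log2 of the sum taken, a value set mostly by the brightest genes of the list. For the alpha cell markers it was 14.42 to 16.45 in replicating and 12.46 to 14.03 in quiescent samples. For the delta and PP markers it was 12.34 to 13.26 and 11.05 to 11.99, and for the fibroblast markers 13.61 to 15.15 and 12.08 to 12.51. Immune markers ran from 9.77 to 10.76 and from 8.77 to 9.98, and acinar markers from 12.73 to 16.07 and from 11.59 to 15.03. For both of these lists the ranges of the groups overlapped. *Irx1*, *Ttr*, *Lum*, *Esam*, *Ptprc*, *Pnlip* and *Krt19* were not well above background on every array.

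Of 9 β-cell markers, 1 was called lower (against 2.79% of all genes), *Mafa* at -1.01. Ratios were below 0 for 6 of the 9 and above 0 for 3. They were below 0 in all 3 preparations for 4 markers (against 17.5% of all genes). For 3 markers all replicating arrays lay below all quiescent arrays (against 5.85% of all genes). The log2 of the summed signal of the 9 markers was 17.93 to 18.28 in replicating and 17.26 to 18.42 in quiescent samples. The part of these other cells in the ratios of the mitochondrial ribosomal proteins was not tested. Fewer cells of a type and less RNA per cell cannot be told apart in such samples.

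The median of the mitochondrial ribosomal proteins was above 0 under each processing tried, from 0.08 to 0.60, while the number of genes called higher ran from 0 to 12. Scaling each array to its 75th percentile moved the median of all genes to -0.43 with the processed signal and to -0.26 after background correction, with the module at 0.21 in both. Over 7 scalings, 38 of the 70 genes were above 0 in each, 17 were below 0 in each, and 15 changed sign. The 12 genes called without preparation 3 included the 3 called over all arrays.

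**Figure D5:**
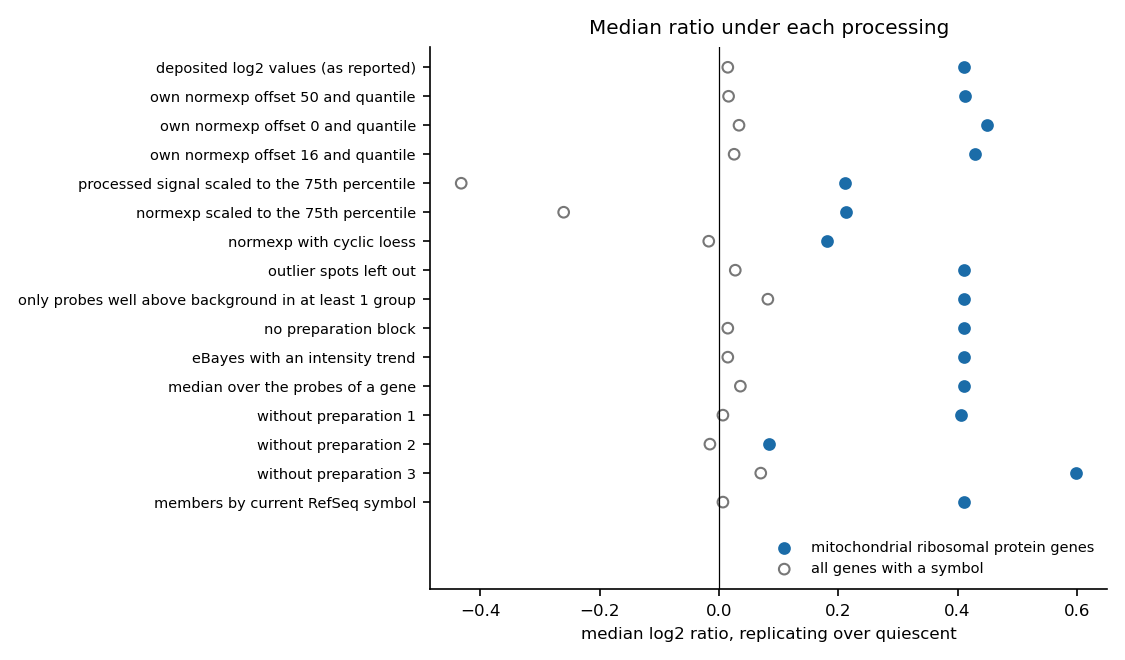
Median log2 ratio of the mitochondrial ribosomal protein genes (filled points) and of all genes with a symbol (open circles) under each way of processing the arrays. The filled points lie above 0 throughout, lowest without preparation 2 (0.08) and highest without preparation 3 (0.60).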

How the data were processed

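Per the labels and the file headers, each array was 1-colour, from RNA amplified by whole transcriptome amplification, and read with Feature Extraction 10.7.3.1. Its deposited intensity values carry marks for outliers and signal above background. The log2 values the authors deposited for each spot had undergone normexp background correction and quantile normalization. These were tested here, and own values at an offset of 50 differed from them by at most 0.116. A spot has no read depth, so the number of arrays limits the precision.

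Spots of a probe were averaged over 45598 non-control probes. limma 3.58.1 in R 4.3.3 compared replicating with quiescent samples (lmFit, eBayes), paired by islet preparation as the study's methods did, and adjusted p by Benjamini-Hochberg over all probes. Tested on simulated data for this comparison (45598 probes), ratios were recovered with a slope of 0.974, and 5.73% of unchanged probes had a p of 0.05 or less. The labels give a replicate number in each group, and samples of the same number were taken as 1 preparation. That each preparation gave both samples follows the paired test in the study's methods. Deviations of paired arrays had an r of 0.0552, 0.233 and 0.252.

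The members and lists were chosen with earlier results of these data known. Values on every array are given for the 12 members of lowest p, the 4 of lowest ratio, and the 3 brightest and 3 dimmest. In the other mitochondrial and ribosomal lists, called genes were named, and *Gadd45gip1* and *Tfam* besides. Of the markers of other cell types, ratios were given for *Gcg* and *Col3a1* only. Probe positions are those of the files, on rn4. RefSeq promoters (GRCr8) were matched by symbol, and 16 members matched none. Genes encoded in mitochondrial DNA were not analysed here. Plots were made with Python 3.11.15 and matplotlib 3.10.9.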

Additional observations from a re-analysis of the deposited data

How the results depend on the processing

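The median ratio of the mitochondrial ribosomal protein genes stayed above 0 under all 15 alternatives. The count of 3 genes called higher was 0 with the processed signal scaled to the 75th percentile and 1 without the replicate block, the fit that ignores the pairing by preparation, and it ran from 0 to 12 when 1 preparation was left out. The count of 0 called lower became 3 with normexp scaled to the 75th percentile (*Mrpl49*, *Mrps27* and *Mrps36*, where the share of all genes called lower went from 2.79% to 9.03%) and 1 when a gene took the median of its probes (*Mrpl30*). The count of 0 probes at an adjusted p under 0.05 by limma over the whole array became 312 with normexp scaled to the 75th percentile, 221 with cyclic loess, 92 without the replicate block and 32 with an intensity trend, and ran from 0 to 80 when 1 preparation was left out, and none of the 70 genes was among them. *Mrpl15* turned to -0.56 at offset 0, -0.11 at offset 16, -1.29 with the processed signal and -0.21 with normexp at the 75th percentile, and ran from -0.24 to 0.25 when 1 preparation was left out. *Mrpl10* turned to -0.046 with the processed signal, -0.039 with normexp at the 75th percentile and -0.24 with cyclic loess, and ran from -0.13 to 0.14 with 1 preparation left out. *Mrps14* read -0.17 with the processed signal, *Mrpl17* read 0.38 with the median over probes, and *Mrps15* ran from -0.34 to 0.0064 with 1 preparation left out. The cause was not tested. Finding the genes through current RefSeq symbols, chosen after seeing the data, gave 71 genes and the same 3 called. Only 3 pairs limit every value.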
